A study of Mus musculus with 6 samples.

Results

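The 3 control libraries described here are total RNA of the basolateral amygdala from male mice that were not stressed, and they were taken by their titles, as 3 of the 6 libraries in the series. The remaining libraries come from male mice under chronic restraint stress and are not analysed here. Each control is a biological replicate per the design text of the series, and the labels give no age, strain or further treatment for these animals. Tissue was dissected and the labels name no sorting of cells, so every value is an average over the neurons, glia and vessels of the sample. Expression was measured by sequencing of stranded libraries from which ribosomal RNA had been removed, and no group is compared with another. Values in 3 libraries are listed in the order control 1, control 2, control 3, errors are SDs with n = 3, and CPM is a gene's count scaled to a fixed total of counts in genes, the usual counts-per-million unit.

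The basolateral amygdala is the cortex-like part of the amygdala, which receives sensory input from cortex and thalamus and is needed to learn that a cue predicts threat or reward. Most of its neurons are glutamatergic projection cells that send axons to the central amygdala, striatum, hippocampus and prefrontal cortex. They are held in check by local GABAergic interneurons of several peptide classes and by clusters of intercalated GABAergic cells on the border of the nucleus. The striatum and the central amygdala, both built mainly of GABAergic neurons, lie directly beside it, as does the lateral ventricle with its choroid plexus.

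Counts in genes were 9916324, 10233706 and 9870139, and a count was present for 18790, 18726 and 18772 of the 26264 gene symbols. Between 53.0 and 55.1% of the reads in the files fell in no gene, and between 36.9 and 38.6% were counted in genes. In the rank correlation of CPM over expressed genes, controls 1 and 2 were the closest pair with a Spearman rho of 0.994, against 0.989 for controls 1 and 3 and 0.987 for controls 2 and 3. Control 3 stood apart from the others in markers of choroid plexus, which were low, and in growth hormone, which was high, while control 1 was the highest library for markers of striatum and of myelin. These differences are given with the markers and beside some of the other genes they touch. Every pair of libraries differed by more than counting noise, with a chi-square per gene of 4.64 to 12.1, so none was a copy of another.

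A count at or above 1 CPM in every library was found for 14107 genes, and 6154 symbols had no count in any of the 3, which allows a level of up to 0.0999 CPM (3 counts over the 30020169 of the 3 libraries). The median expressed gene had a level of 26.4 CPM. A mean of 100 CPM was reached by 2436 genes and a mean of 1000 CPM by 61. Ranked by mean CPM over the 3 libraries, the 10 most abundant genes took 4.86 ± 0.178% of the counts. The 100 most abundant took 15.2 ± 0.201% and the 1000 most abundant 47.4 ± 0.606%. The same genes were used in every library, and the 10 held 4.95, 4.97 and 4.65%. They include Ttr, which was low in control 3. The most abundant genes that together held 50% of the counts numbered 1159, 1134 and 1094. Protein-coding genes held 94.0 ± 0.0895% of the counts and long intergenic non-coding RNAs 2.02 ± 0.0852%. The remainder of the counts was thus spread over many genes, with 2 non-coding RNAs that took more counts than any other gene.

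**Figure D1:**
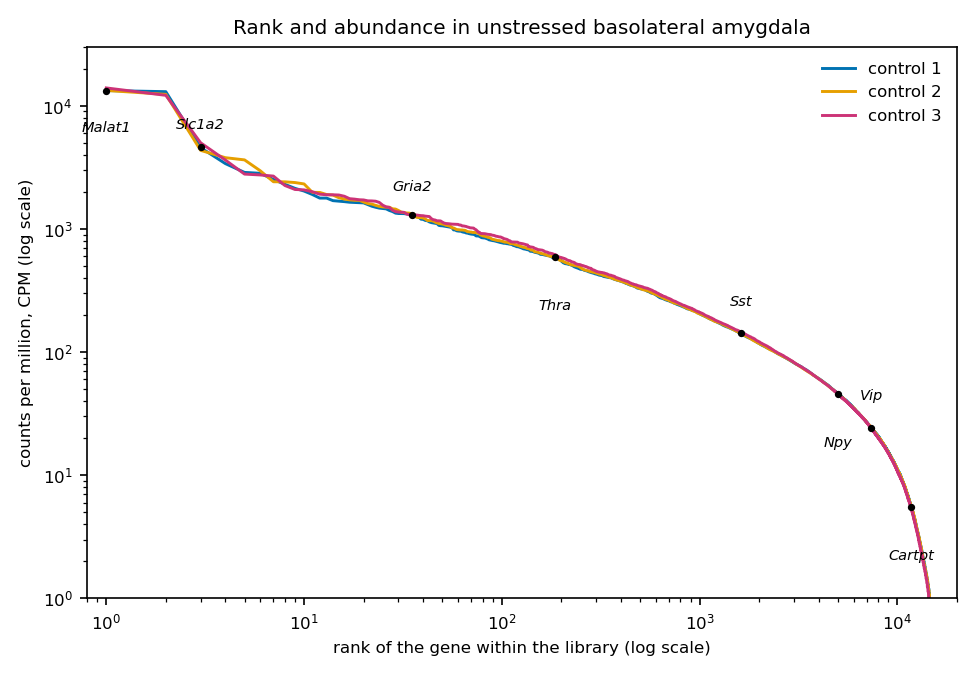
Genes ordered by level within each library (horizontal axis, rank, log scale) against CPM (vertical axis, log scale), with 1 line for each control library and black points at the mean level of 8 named genes placed at their mean rank. The 3 lines lie on each other from Malat1, at a mean of 13116 CPM, down to 1 CPM, and Sst, Npy, Vip and Cartpt mark how far peptide transcripts spread over the ranks.

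Malat1, a long non-coding RNA kept in the nucleus, had 13016, 12375 and 13958 CPM. Rn7sk, the small nuclear RNA that holds the transcription elongation factor P-TEFb inactive, had 13289, 13317 and 12152 CPM, so the order of these RNAs differed between libraries, with Malat1 first only in control 3. Both took more than 1% of all counts. Other RNAs that are not translated were high as well. The imprinted long non-coding RNA Meg3 had 2829, 2412 and 2743 CPM, the ribosomal RNA precursor Rn45s 2029.6, 1883 and 2090.0 CPM, and Rpph1, the RNA of ribonuclease P, 1904, 1983 and 2005 CPM. How much of a ribosomal precursor is left depends on the depletion step, so its level is that of these libraries and not of the tissue.

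Among protein-coding genes the highest by CPM was Slc1a2, the astrocyte transporter that clears glutamate from synapses, at 4568, 4342 and 5005 CPM. The 20 most abundant genes by CPM also held the cytoskeleton of axons and dendrites: the microtubule-associated proteins Map2 (2876, 2969 and 2787 CPM) and Map1b (2301, 2415 and 2685 CPM), the kinesin motors Kif5a (2519, 2318 and 2251 CPM) and Kif1a (1627, 1591 and 1885 CPM), the spectrins Sptan1 and Sptbn1 and the spectrin anchor Ank2. Snap25, a core protein of synaptic vesicle fusion, had 1464, 1656 and 1914 CPM and was lowest in control 1. Ttc3, a ubiquitin ligase gene, was among the steadiest of these at 1779, 1791 and 1759 CPM.

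The exception in the list was Ttr, which encodes transthyretin, the thyroid hormone carrier that the choroid plexus makes in bulk. It had 21408, 38953 and 185 counts, or 2134, 3787 and 19.1 CPM, and so ranked among the 10 most abundant genes of controls 1 and 2 while it was 199-fold lower in control 3 than in control 2. Its mean describes none of the animals. No other gene of the 20 most abundant by CPM had an SD above 13.5% of its mean.

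Long transcripts collect more reads, so an order of genes by CPM, as above, ranks shares of the counts, and levels of different genes were compared after division by the exonic length of the gene, as CPM per kilobase (CPM/kb). The median expressed gene had 6.26 CPM/kb. On this scale, over genes with at least 500 exonic bases, Ttr was near the top of the protein-coding list through controls 1 and 2.

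Also high on the length-scaled list were Cpe, carboxypeptidase E, which trims peptide hormones (644 ± 17.5 CPM/kb), Actb, cytoplasmic actin (624 ± 12.6 CPM/kb), the neuronal membrane protein Gpm6a (547 ± 38.6 CPM/kb) and Psap, the precursor of the lysosomal saposins (521 ± 25.7 CPM/kb). Npcd also stood here at 685 ± 115 CPM/kb, but this symbol overlaps other genes and its level is uncertain. Astrocyte products were prominent: Sparcl1, a secreted protein of synapse formation, had 502 ± 6.47 CPM/kb, Apoe, the lipid carrier, 359 ± 39.2 CPM/kb, Slc1a2 353 ± 25.7 CPM/kb and Glul, glutamine synthetase, 341 ± 12.4 CPM/kb. Cst3, which encodes the secreted protease inhibitor cystatin C, varied least among them, at 507, 511 and 511 CPM.

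Markers of the labelled tissue were looked at by their levels. All 13 listed markers of glutamatergic neurons, all 11 of basolateral amygdala excitatory cells and all 10 of GABAergic neurons were at 1 CPM or more in every library. So were all 19 of striatum and central amygdala, all 7 of intercalated cells and 14107 of all 26264 symbols. Detection at this floor therefore does not check the label of the tissue. Slc17a7, the vesicular glutamate transporter of cortical neurons, had 721, 937 and 1094 CPM, and Slc17a6, the transporter typical of thalamus and hypothalamus, 39.97, 36.1 and 42.7 CPM. Per length, Slc17a7 was 23.2 ± 4.48 times as high as Slc17a6. Slc17a7 was the higher of the pair in every library.

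Camk2a, the kinase subunit abundant in forebrain projection neurons, had 947, 1107 and 1303 CPM, and the vesicle protein gene Sv2b 702, 926 and 941 CPM. Nptx1, a neuronal pentraxin that binds AMPA receptors, had 167, 249 and 261 CPM, Nrn1, a neurite growth factor, 123, 165 and 138 CPM, Baiap2, an actin regulator of spines, 272, 282 and 283 CPM, and Slc30a3, the transporter that loads zinc into vesicles, 73.1, 106 and 88.5 CPM. Among transcription factors of this lineage Neurod6 had 35.99, 51.4 and 58.7 CPM, Neurod2 34.99, 49.5 and 53.05 CPM, Tbr1 46.8, 58.4 and 77.97 CPM and Neurod1 4.88, 12.3 and 10.8 CPM. Control 1 was the lowest library for 11 of the 13 markers, Slc17a6 not among them, against 3596 of all 11971 genes at 5 CPM or more. Control 3 was the highest for 10 of the 13, against 37.9% of all genes at that level.

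The 11 markers listed for excitatory cells of the nucleus did not move as one. Mef2c, an activity-dependent transcription factor, had 542, 587 and 900.5 CPM and Rspo2, a secreted Wnt amplifier that marks anterior basolateral neurons, 13.8, 12.1 and 23.4 CPM, both highest in control 3. Rorb had 73.6, 60.8 and 109 CPM, Etv1 61.4, 51.4 and 74.1 CPM, Fezf2 11.8, 12.3 and 17.3 CPM and the cadherin gene Cdh13 148, 124 and 165 CPM, in the same order of control 3 first. In contrast, Lypd1 had 586, 521 and 345 CPM and Lmo3, a LIM-only factor of the amygdala, 299.8, 322 and 161 CPM, both lowest in control 3. Ppp1r1b, the dopamine-regulated phosphatase inhibitor that posterior basolateral cells share with striatal neurons, had 243, 139 and 143 CPM and was highest in control 1. Nr2f2 (57.2, 62.1 and 48.6 CPM) and the retinoic acid-degrading enzyme Cyp26b1 (68.6, 55.03 and 62.7 CPM) stayed within 1.28 times.

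GABAergic neurons were represented by both glutamate decarboxylases, which make GABA. Gad1 had 409, 314 and 286 CPM and Gad2 418, 292 and 258 CPM. Slc32a1, the vesicular GABA transporter, had 57.9, 35.2 and 38.5 CPM, so the ratio of Slc17a7 to Slc32a1 per length was 6.46 in control 1 but 13.8 and 14.7 in controls 2 and 3. The lineage RNA Dlx6os1 had 63.3, 51.5 and 44.1 CPM, and the lineage factors Lhx6, Dlx1, Dlx5 and Dlx2 had few counts, with 17.8 ± 3.03 CPM for Lhx6 and 2.55 ± 0.778 CPM for Dlx2. Control 1 was highest for 7 of the 8 members at 5 CPM or more, against 30.4% of all such genes. In bulk tissue a smaller number of cells of one type and a lower level in each such cell cannot be told apart, and this holds for every marker given here.

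**Figure D2:**
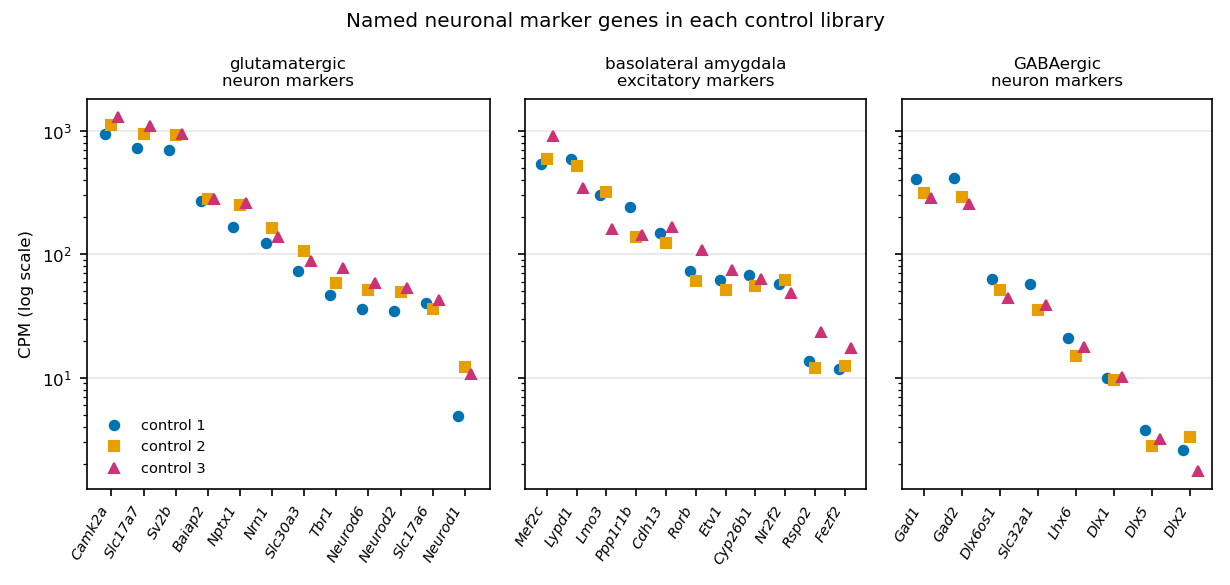
CPM (vertical axis, log scale) of the markers of glutamatergic neurons, basolateral amygdala excitatory cells and GABAergic neurons that are named in the text, with 1 symbol for each control library. Control 1 lies lowest for most glutamatergic genes and highest for most GABAergic genes, and Mef2c lies highest in control 3.

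Glutamate and GABA receptor genes filled 9 of the 10 highest places among receptors per length. Of 388 receptor genes 258 were at 1 CPM or more in every library, 52 had a mean of 100 CPM or more and 26 had no count, and the median of the expressed ones was 4.68 CPM/kb. Over all 26264 symbols, 14107 were at 1 CPM or more in every library, 2436 had a mean of 100 CPM or more and 6154 had no count. AMPA receptors carry fast excitatory current and are built from 4 subunits, which together gave 266 ± 3.98 CPM/kb. Gria1, whose insertion into synapses accompanies potentiation, was the highest receptor gene per length at 117, 122 and 106 CPM/kb and gave 43.1 ± 2.59% of the subunit total. Gria2, the subunit that blocks calcium entry, followed at 81.1, 84.7 and 83.5 CPM/kb, then Gria3 at 39.2 ± 3.13 CPM/kb and Gria4 at 28.9 ± 1.79 CPM/kb. The ratio of Gria1 to Gria2 per length was 1.38 ± 0.103 and lay above 1 in every library. By CPM without length Gria2 was the higher of the 2, at 1262, 1316 and 1298 against 709, 735 and 638.

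NMDA receptor subunits, which gate calcium on coincident activity, summed to 138 ± 14.1 CPM/kb. Grin2b was higher than Grin2a in every library, at 50.1, 55.1 and 68.05 against 23.4, 25.5 and 30.2 CPM/kb, and the ratio of 2.18 ± 0.0595 varied less than either gene. The obligatory subunit Grin1 had 36.7 ± 2.54 CPM/kb, and with the length of the longest transcript in place of all exons Grin1 was the highest member. Grin3a and Grin2c were lower, at 8.72 ± 0.791 and 7.67 ± 0.782 CPM/kb.

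Of the metabotropic glutamate receptors Grm5, coupled to calcium release, was first at 64.02 ± 2.36 CPM/kb. Grm3, an inhibitory receptor also carried by astrocytes, had 49.8 ± 7.85 CPM/kb and Grm7, an inhibitory receptor of axon terminals, 24.5 ± 0.622 CPM/kb. Grm6, the receptor of retinal bipolar cells, had no count. Among kainate receptor subunits Grik5 gave 43.2 ± 2.82% of the family at 26.3 ± 4.24 CPM/kb, and Grik3 (14.03 ± 2.77 CPM/kb) and Grik2 (12.4 ± 1.38 CPM/kb) overlapped. The delta receptor gene Grid1 had 13.8 ± 0.980 CPM/kb.

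GABA-A receptors, the chloride channels of fast inhibition, had a family total of 432 ± 3.21 CPM/kb. Of its members the beta subunit Gabrb2 had 80.4 ± 2.17 CPM/kb. The metabotropic GABA-B receptor needs both of its subunits. Gabbr1 was even at 759, 735 and 780.5 CPM, while Gabbr2 had 301, 388 and 468 CPM, so that the ratio of the pair per length was 2.17 in control 1, 1.63 in control 2 and 1.44 in control 3. Glrb, the glycine receptor beta subunit that binds the scaffold gephyrin, had 252, 252 and 252 CPM, and the alpha subunits Glra2 (13.6 ± 1.35 CPM/kb) and Glra3 (6.44 ± 0.207 CPM/kb) were lower in every library.

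No receptor for acetylcholine, a monoamine or a neuropeptide was among the 10 highest. Of the muscarinic receptors Chrm1 (29.7 ± 2.63 CPM/kb) and Chrm4 (26.1 ± 4.12 CPM/kb) overlapped and Chrm3 was below both at 4.98 ± 0.777 CPM/kb. Chrnb2, Chrna4 and Chrna7 led the nicotinic subunits at 9.11 ± 0.214, 5.82 ± 1.91 and 4.60 ± 0.554 CPM/kb. Htr2c was the highest serotonin receptor at 174, 200.5 and 99.8 CPM and was lowest in control 3, whereas Htr2a had 26.02, 28.2 and 39.3 CPM and was highest there. Their ratio per length was therefore 4.01 and 4.27 in controls 1 and 2 and 1.52 in control 3. Htr2c was highest in control 2 and lowest in control 3, as were all 15 choroid plexus markers given below. The part of that tissue in the level of Htr2c was not tested. Htr1b, a receptor of axon terminals, had 5.62 ± 1.83 CPM/kb. Adra2c led the adrenergic receptors at 8.68 ± 1.60 CPM/kb, and Adra1d (4.68 ± 2.53 CPM/kb) and Adrb1 (4.63 ± 1.34 CPM/kb) followed.

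The dopamine receptor genes are also on the list of striatal markers. Drd1 had 108, 57.1 and 58.2 CPM and Drd2 45.3, 17.2 and 25.4 CPM, both highest in control 1, and their ratio per length was 1.87 ± 0.399. Hrh3, a histamine receptor of axon terminals, had 67.7, 52.3 and 70.5 CPM. Drd1 was the highest of the dopamine and histamine receptors per length by the mean of the 3 libraries, but without control 1, or with the longest transcript as length, Hrh3 was. Cnr1, the cannabinoid receptor that quiets cholecystokinin interneurons, had 382, 354 and 369 CPM or 57.2 ± 2.15 CPM/kb. S1pr1 and Adora1, receptors for sphingosine phosphate and adenosine, had 51.3 ± 2.55 and 28.6 ± 1.96 CPM/kb.

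Of 82 receptors for neuropeptides and peptide hormones 46 were at 1 CPM or more in every library, against 14107 of all 26264 symbols. Adcyap1r1, the receptor for PACAP, was first at 243, 226 and 212 CPM, followed by the nociceptin receptor Oprl1 at 84.04, 74.8 and 76.6 CPM and the endothelin receptor Ednrb at 82.9, 71.8 and 61.7 CPM. The orphan and adhesion group was led by the latrophilin Adgrl1 (71.3 ± 10.9 CPM/kb) and by Adgrb2 (54.9 ± 6.48 CPM/kb). Among receptor tyrosine kinases the receptor for BDNF, Ntrk2, had 838, 812 and 906 CPM, Epha4 302, 321 and 349.6 CPM and Tyro3 214, 203 and 234 CPM, and their ranges per length overlapped from each to the next.

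Of 248 channel genes 176 were at 1 CPM or more in every library, 58 had a mean of 100 CPM or more and 24 had no count, and the median of the expressed ones was 7.44 CPM/kb. For all 26264 symbols these numbers were 14107, 2436 and 6154. Sodium channel genes were among the highest per length. Scn2b, an auxiliary subunit, had 75.8, 69.98 and 77.2 CPM/kb. Scn2a, the pore-forming subunit of excitatory axons, had 67.4 ± 5.01 CPM/kb, and by CPM without length it was the highest of the family at 792, 865 and 919. Scn4b, an auxiliary subunit abundant in striatal neurons, was the most uneven sodium channel gene, with 226, 60.9 and 111 CPM.

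Potassium channels set the resting potential and shape spikes. Kcnj4, an inward rectifier, was first at 62.99 ± 3.92 CPM/kb. Kcna1, a low-threshold channel of axons, had 46.9 ± 2.87 CPM/kb and its auxiliary subunit Kcnab2 46.6 ± 2.86 CPM/kb. Kcnd2, which carries the A-type current of dendrites, had 226, 169 and 174 CPM and was highest in control 1, and its partners Kcnip2 and Kcnip3 had 31.8 ± 3.18 and 30.1 ± 4.32 CPM/kb. Kcnf1, an electrically silent modifier subunit, had 142, 165 and 184 CPM. Of the G protein-gated channels Kcnj3 had 30.7 ± 3.87 CPM/kb and Kcnj9 27.1 ± 5.33 CPM/kb. Kcnk1 gave 52.4 ± 4.06% of the two-pore family, ahead of Kcnk9 and Kcnk2 in every library. Kcnma1, Kcnt2 and Kcnt1, the large calcium-activated and the sodium-activated channels, had 16.5 ± 1.59, 12.9 ± 2.91 and 10.7 ± 1.22 CPM/kb. Control 3 was highest for 23 of the 32 voltage-gated pore subunits at 5 CPM or more, for 24 of 33 genes of vesicle release and for 15 of 18 of postsynaptic scaffolds, against 37.9% of all genes.

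Among calcium channel pores Cacna1e, of the R type, led at 33.02 ± 2.01 CPM/kb, with Cacna1b (21.9 ± 2.75 CPM/kb) and Cacna1a (10.7 ± 2.21 CPM/kb) of transmitter release below it. The auxiliary subunits Cacnb3, Cacna2d1 and Cacnb4 had 39.6 ± 4.29, 35.3 ± 4.37 and 30.1 ± 5.32 CPM/kb with overlapping ranges. Inside the cell Itpr1, the inositol trisphosphate receptor, gave 58.99 ± 2.74% of the release channels at 50.02 ± 8.64 CPM/kb, above Ryr2 (19.2 ± 2.47 CPM/kb) and Ryr3 (10.2 ± 1.33 CPM/kb). Of the channels of the hyperpolarization-activated current Hcn2 had 15.4 ± 1.81 CPM/kb and Hcn3 was lower at 2.88 ± 0.271 CPM/kb. Acid-sensing Asic1 and Asic2 were level at 13.04 ± 1.37 and 12.9 ± 1.30 CPM/kb, with Asic4 at 7.40 ± 2.19 CPM/kb. Trpc5, Trpm3 and Trpc1 led the TRP channels, and of these Trpm3 was uneven at 308, 444 and 135 CPM, so that without control 3 it was the highest member. Like the choroid plexus markers given below, Trpm3 was highest in control 2 and lowest in control 3. The anoctamin Ano3 (35.9 ± 4.20 CPM/kb), the chloride-proton exchanger Clcn4 (28.6 ± 1.04 CPM/kb) and the volume-regulated Lrrc8b (23.4 ± 2.71 CPM/kb) led the chloride group. Among glial channels the astrocyte connexins Gja1 and Gjb6 had 140.1, 125 and 129 and 28.4, 25.96 and 38.4 CPM, and the water channel Aqp4 132, 148 and 122 CPM, while Aqp1, a water channel of choroid plexus, had 15.8, 22.7 and 0.927 CPM.

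**Figure D3:**
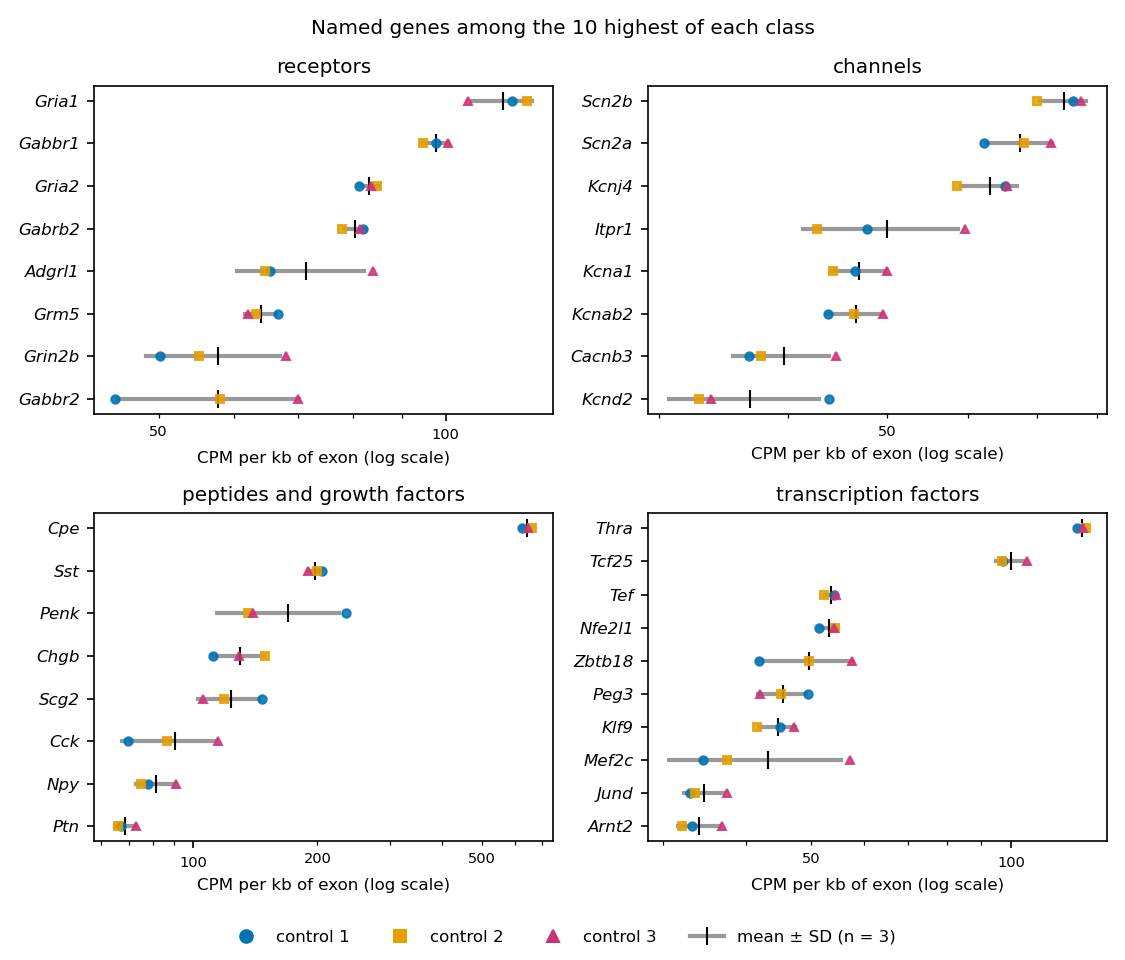
Levels of genes among the 10 highest receptors, channels, peptide-class genes and transcription factors that are named in the text, in CPM per kilobase of exon (horizontal axes, log scale), with 1 symbol for each control library, a black tick at the mean and a grey bar of ± 1 SD (n = 3). Gria1, Scn2b, Cpe and Thra head the panels, Thra and Tef show tight symbols, and Penk, Gabbr2 and Mef2c wide ones.

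Peptide-class genes had a median of 5.47 CPM/kb where expressed. Of 69 neuropeptide precursors 26 were at 1 CPM or more in every library and 16 had no count, among them Oxt, the oxytocin precursor. For all 26264 symbols these numbers were 14107 and 6154. Sst, the precursor of somatostatin and the mark of dendrite-targeting interneurons, had 148, 144 and 137 CPM and 198 ± 7.74 CPM/kb. Penk, the enkephalin precursor of striatal, central amygdala and intercalated cells, had 383, 222 and 228 CPM. In control 1 Penk was above Sst per length, at 234 against 205 CPM/kb, and in controls 2 and 3 Sst was above Penk. Sst was thus first by the mean, and the ranges of the pair overlapped.

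Cck, the cholecystokinin precursor, had 90.7, 113 and 150.5 CPM and was lowest in control 1, where Penk was highest. It is made both by a class of interneurons and by cortical projection neurons. Npy, neuropeptide Y, had 44.2, 42.4 and 51.6 CPM, and Dbi, the diazepam-binding inhibitor of glia, 81.6, 83.8 and 65.3 CPM. Further down, the dynorphin precursor Pdyn had 43.6, 28.97 and 31.5 CPM, the substance P precursor Tac1 54.7, 32.3 and 33.4 CPM and the interneuron peptide Vip 19.3, 21.6 and 31.7 CPM. Pdyn and Tac1 were highest in control 1, as Penk was, and the ratio of Penk to Pdyn per length was 13.9 ± 1.42. Sst was 19.6 ± 1.55 times as high per length as Pvalb, the parvalbumin of fast-spiking interneurons, which had 11.3, 9.72 and 10.7 CPM. Crh, the corticotropin-releasing hormone precursor, was at 47, 39 and 40 counts and Cartpt at 5.28, 7.20 and 4.22 CPM.

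Transcripts of genes for packing and cutting peptides summed to more per length than those of the 69 neuropeptide precursors, which gave 703 ± 59.1 CPM/kb. All 11 listed granins and processing genes were at 1 CPM or more in every library, as were 14107 of all 26264 symbols. Their family total was 1281 ± 14.9 CPM/kb, of which Cpe gave 50.3 ± 0.812%. Chgb, a granin of dense-core vesicles, had 307, 408 and 355 CPM and Scg2, secretogranin II, 369, 299 and 266 CPM, and their ranges per length overlapped. Pcsk2 and Pcsk1, the convertases that cut precursors, had 371, 370.3 and 481 and 101, 107 and 103 CPM. Among growth factors Ptn, pleiotrophin, led at 68.6 ± 3.75 CPM/kb and the intracellular Fgf12, a partner of sodium channels, had 255, 259.8 and 258 CPM. Gdf1 is uncertain because it had the same counts as Cers1 in every library.

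Promoter sequence of these genes was examined for the cyclic AMP response element, the site of CREB-family factors, because somatostatin is the gene in which this element is best known. The palindrome TGACGTCA, which reads the same on both strands, was searched in the 250 bases before the first start site that RefSeq lists for each gene (build GRCm38.p6, which is not the build of the counts). It stood in 1.62% of 27025 promoters in the table, in 2.80% of the 11095 matched genes at 1 CPM or more in every library and in 0.802% of the 4487 matched genes without a count. Of the 22 matched precursors expressed at that level 2 held it, and of the 9 matched granins and processing genes 3 held it. No entry was matched for Penk, Cpe, Vgf, Crh, Grp and Pnoc. The 5 promoters with the element are shown 5′ to 3′ on the strand of the gene, with the element in capitals.

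Sst: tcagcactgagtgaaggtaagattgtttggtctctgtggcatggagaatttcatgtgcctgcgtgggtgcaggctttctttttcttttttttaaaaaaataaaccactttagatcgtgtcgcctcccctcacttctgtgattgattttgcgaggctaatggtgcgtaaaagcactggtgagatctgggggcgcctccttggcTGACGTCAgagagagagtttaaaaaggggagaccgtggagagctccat

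Chgb: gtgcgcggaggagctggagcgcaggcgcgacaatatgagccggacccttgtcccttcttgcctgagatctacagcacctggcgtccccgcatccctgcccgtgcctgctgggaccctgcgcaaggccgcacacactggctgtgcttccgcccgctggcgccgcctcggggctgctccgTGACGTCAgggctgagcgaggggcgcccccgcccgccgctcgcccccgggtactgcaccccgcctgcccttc

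Scg2: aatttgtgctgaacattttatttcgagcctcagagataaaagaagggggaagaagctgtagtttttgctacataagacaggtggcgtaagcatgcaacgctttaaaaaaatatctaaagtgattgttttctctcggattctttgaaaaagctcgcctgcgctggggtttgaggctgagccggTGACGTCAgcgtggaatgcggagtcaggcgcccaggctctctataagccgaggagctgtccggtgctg

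Pcsk1: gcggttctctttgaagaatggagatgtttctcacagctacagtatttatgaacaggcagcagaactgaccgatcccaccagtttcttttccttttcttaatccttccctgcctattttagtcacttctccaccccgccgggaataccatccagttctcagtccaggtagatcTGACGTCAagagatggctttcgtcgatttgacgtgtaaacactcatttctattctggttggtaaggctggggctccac

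Cartpt: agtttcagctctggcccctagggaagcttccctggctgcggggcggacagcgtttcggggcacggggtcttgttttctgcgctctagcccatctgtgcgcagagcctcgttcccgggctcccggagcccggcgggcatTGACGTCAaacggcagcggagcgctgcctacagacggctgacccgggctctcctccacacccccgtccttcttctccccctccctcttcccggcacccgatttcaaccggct

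The stretches lie at chr16:23890845-23891094 (minus strand) for Sst, chr2:132781392-132781641 (plus strand) for Chgb, chr1:79440027-79440276 (minus strand) for Scg2, chr13:75089607-75089856 (plus strand) for Pcsk1 and chr13:99900684-99900933 (minus strand) for Cartpt. Counted from the start site, the first base of the element stood at -48, -72, -68, -78 and -112. In this set the level per length ran from 198 ± 7.74 CPM/kb for Sst through 130.2 ± 18.6 for Chgb, 124 ± 20.9 for Scg2 and 18.5 ± 0.519 for Pcsk1 to 4.36 ± 1.18 for Cartpt. Genes with the same letters in the window thus differed widely in level, and the distance of the element differed as well. The TATAAA motif, searched on both strands, stood in 12.97% of all promoters in the table, in 6.24% of the matched expressed genes and in 25.1% of the matched genes without a count. GC content had a median of 60% in promoters of expressed genes and 44% in those of genes without a count. These matches describe letters in a window and were not tested for an effect.

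Transcription factors had a median of 3.49 CPM/kb where expressed, against 6.26 CPM/kb over all expressed genes. Of 696 genes 428 were at 1 CPM or more in every library, 43 had a mean of 100 CPM or more and 95 had no count. For all 26264 symbols these numbers were 14107, 2436 and 6154. Thra, a thyroid hormone receptor that acts as a repressor without hormone and an activator with it, was the highest at 579, 597 and 590.0 CPM and 128 ± 1.89 CPM/kb, and it gave 33.9 ± 1.10% of the nuclear receptor total. Per length it was 10.9 ± 0.783 times as high as Thrb. The clock-linked repressor Nr1d2 had 26.04 ± 1.37 CPM/kb. Of the corticosteroid receptors Nr3c1, the glucocorticoid receptor, had 162, 152 and 162 CPM and Nr3c2, the mineralocorticoid receptor, 97.3, 112 and 86.8 CPM, and per length Nr3c1 was 1.37 ± 0.214 times as high.

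Tcf25, whose product is also known from ribosome quality control, followed Thra at 523, 522 and 569.6 CPM. Tef, an output factor of the circadian clock, and Nfe2l1, a regulator of proteasome genes, had 53.6 ± 1.16 and 53.3 ± 1.68 CPM/kb and their ranges overlapped. Jund, a partner in the AP-1 complex, had 34.6 ± 2.41 CPM/kb. Zbtb18, a repressor needed in cortical projection neurons, had 256, 305 and 354 CPM, lowest in control 1 and highest in control 3. Peg3, an imprinted zinc finger gene, and Klf9, a gene induced by thyroid hormone and glucocorticoids, had 659, 599.8 and 558 and 217, 200.1 and 227 CPM. Their ranges and that of Zbtb18 overlapped, and without control 3 Peg3 was the highest of the 3.

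Mef2c, described above, led the MEF2 and related group per length at 43.1 ± 12.4 CPM/kb, ahead of Mef2d (25.4 ± 3.30 CPM/kb) and Camta2 (18.7 ± 3.76 CPM/kb). In the basic helix-loop-helix group Arnt2 and the inhibitor Id4 came next after Tcf25 at 33.99 ± 2.45 and 33.2 ± 4.90 CPM/kb. Adnp, Meis2 and Zeb2 led the homeobox group, and Meis2, abundant in striatal neurons, was uneven at 216, 167 and 133 CPM. Foxk2, Sox8 and Sox2 led the T-box, SOX and forkhead group at 20.9 ± 0.864, 16.1 ± 2.12 and 14.7 ± 1.75 CPM/kb. Smad4, Smad3 and Ets2 led the signal-regulated factors, with an SD of at most 4.35% of the mean. Of the 165 homeobox, POU and paired genes 60 had no count, against 6154 of all 26264 symbols.

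Glial markers were present at high and mostly even levels. All 15 astrocyte markers were at 1 CPM or more in every library, as were 14107 of all 26264 symbols. The markers were led per length by Slc1a2, Glul and the glycolytic gene Aldoc (644, 673 and 679.9 CPM). Their median coefficient of variation (CV, the SD as a share of the mean) was 7.27%. Of the 14 microglia markers the complement genes C1qa and C1qb had 36.1, 31.5 and 31.9 and 31.6, 27.03 and 31.00 CPM, and the list's median CV was 7.63%. Of the 13 microglia markers at 5 CPM or more 9 were highest in control 1, against 30.4% of all genes. The oligodendrocyte precursor genes Olig1, Tnr and Gpr17 had 19.7 ± 1.25, 16.5 ± 0.765 and 12.03 ± 1.03 CPM/kb, with a list median CV of 6.54%. Rgs5 and Vtn, of pericytes, had 118, 120.1 and 122 and 46.4, 43.2 and 48.4 CPM. Over all 11971 genes at a mean of 5 CPM or more the median CV was 7.55%.

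Mature oligodendrocyte markers were less even, with a median CV of 26.3%. All 16 myelin markers were highest in control 1, against 30.4% of all genes at 5 CPM or more. Mbp, myelin basic protein, had 941, 691 and 608 CPM and Mobp 572, 379.8 and 409.5 CPM. Controls 2 and 3 lay closer to each other than to control 1 for both of these genes. Markers of striatum and central amygdala did likewise, with 15 of the 16 at 5 CPM or more highest in control 1. Besides Penk and Ppp1r1b, the phosphodiesterase Pde10a had 509, 208 and 291 CPM and the adenosine receptor Adora2a 82.7, 37.9 and 53.4 CPM. Of the 16 genes 7 differed 2-fold or more between libraries, against 1.92% of all genes at 5 CPM or more. Summed per length the list gave 623, 335 and 379 CPM/kb. Intercalated cell markers were also highest in control 1 for 4 of 6 genes, with Tshz1 at 65.99, 60.2 and 41.4 CPM, Pbx3 at 35.2, 20.2 and 16.7 CPM and Foxp2 at 54.6, 34.4 and 34.4 CPM. The part that these neighbouring cell types have in other results was not tested.

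Control 3 differed by another set. All 15 choroid plexus markers were lowest in control 3 and highest in control 2, whereas of all 11971 genes at 5 CPM or more 4548 were lowest in control 3 and 31.7% highest in control 2. The markers had list totals of 2126, 3774 and 56.4 CPM/kb. Besides Ttr, the secreted lipase Enpp2 had 1334, 2379 and 190.2 CPM, the potassium channel Kcnj13 36.4, 64.2 and 1.96 CPM and the ageing-related hormone Kl 106, 186 and 9.68 CPM. The ependymal genes Foxj1, Dynlrb2 and Rsph1, of ciliated ventricle lining, followed the same order at 10.9, 16.6 and 4.53, 2.19, 3.79 and 0.618 and 5.18, 7.39 and 3.19 CPM. Igf2, Dcn and Ogn, markers of the meninges, had 52.4, 85.7 and 31.1, 14.6, 21.3 and 16.4 and 4.59, 6.32 and 6.28 CPM and were each highest in control 2. However, 8 of the 12 meningeal genes had a mean of 5 CPM or more. Of these 8 genes 5 were highest in control 3, against 37.9% of all genes. Control 1 was lowest for 7 of the 8, against 3596 of all 11971 genes at that level. A difference of 2-fold or more was found in 4 of the 8, against 1.92% of all genes. Col1a1 (3.59, 3.89 and 8.34 CPM) and Fmod (3.19, 4.38 and 7.93 CPM) reached the mean of 5 CPM only through control 3. Both count among the 5, the 7 and the 4, so these counts depend in part on that floor.

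Immediate early genes, which neurons switch on within minutes of activity, were highest in control 3 for 10 of 12 genes at 5 CPM or more, against 37.9% of all genes at that level. Arc had 45.3, 51.9 and 84.1 CPM, Egr1 46.2, 44.7 and 70.9 CPM, Nr4a1 22.03, 27.6 and 38.8 CPM and Npas4 5.68, 14.1 and 18.3 CPM, whereas Junb was level at 32.6, 35.1 and 32.4 CPM. The haemoglobin genes were also highest in control 3. Hbb-bs and Hba-a1 had 23.9, 32.7 and 44.9 and 14.9, 16.8 and 28.3 CPM, and both are uncertain because Hba-a1 and Hba-a2, and Hbb-b1 and Hbb-bs, had identical counts. Of 15 endothelial markers 12 were highest in control 3, again against 37.9%, with Slc2a1, the glucose transporter of the blood-brain barrier, at 79.3, 67.7 and 88.5 CPM.

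Further lists covered other nearby regions. The dentate and hippocampal list was led by Wfs1 and Calb1 at 197, 177 and 182 and 168, 160.1 and 143 CPM, genes that the amygdala also expresses, and Prox1, of dentate granule cells, had 22.4, 16.9 and 17.1 CPM. Of the 16 genes of medial amygdala and hypothalamus 6 were at 1 CPM or more in every library, against 14107 of all 26264 symbols. Among the 6, Tac2 had 10.6, 9.04 and 8.03 CPM and the releasing hormone precursor Trh 2.79, 3.69 and 1.85 CPM.

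**Figure D4:**
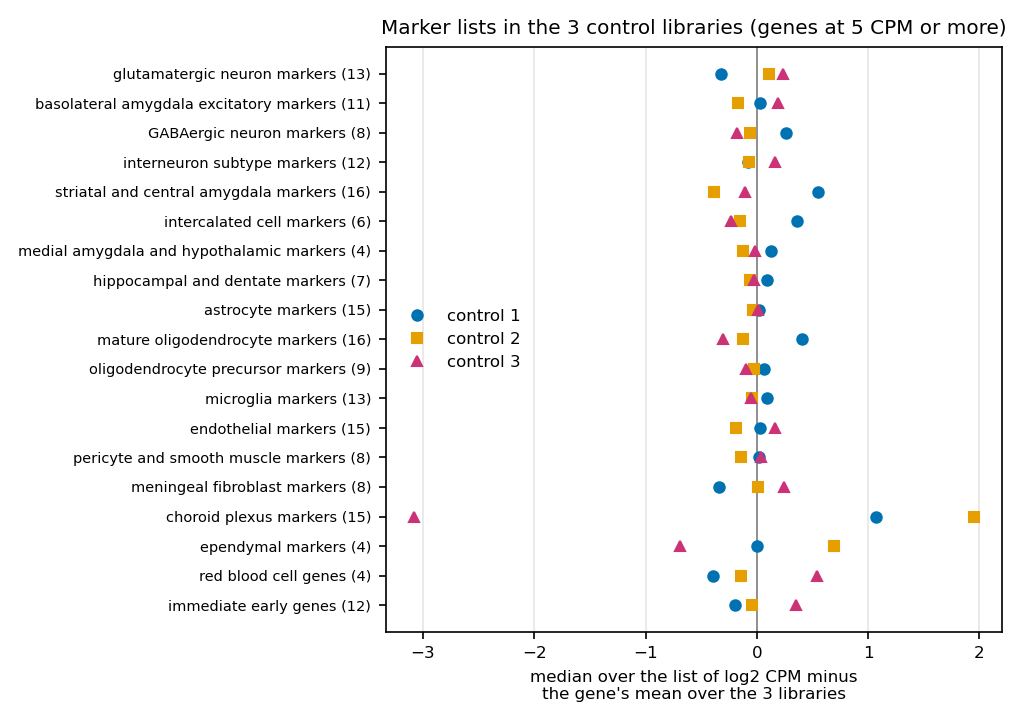
For each of 19 marker lists, the median over its genes at 5 CPM or more of log2 CPM minus the gene's mean over the 3 libraries (horizontal axis, log2 units), with 1 symbol for each control library and the number of genes in brackets. Choroid plexus markers range from -3.08 in control 3 to 1.95 in control 2, and striatal and myelin markers lie at 0.55 and 0.41 in control 1, while the 3 symbols of astrocytes, microglia and oligodendrocyte precursors lie close to 0.

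Across all genes the libraries were close. The median CV of 7.55% compares with 5.33% from counting error alone, the spread that a Poisson count of that size would have, and 3705 genes, or 30.9%, varied no more than that. The biological coefficient of variation that edgeR estimates after removing counting error was 10.99%, and it was 7.28% without control 3, 13.2% without control 1 and 12.1% without control 2. Highest and lowest library lay within 1.5 times for 91.9% of the genes at 5 CPM or more, and 230 of 11971, or 1.92%, differed 2-fold or more. Of these genes, control 3 was the library farthest from the others in most, low in 127 and high in 41. Without control 3, 42 genes differed by that much.

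Of the 20 genes with the highest ratio 12 were on the choroid plexus or ependymal lists. These lists hold 15 and 4 of the 11971 genes at 5 CPM or more. Not on these lists were Ecrg4, an epithelial peptide precursor, at 21.9, 37.7 and 0.309 CPM, the tight junction gene Cldn2 at 15.9, 30.9 and 0.515 CPM and the keratin gene Krt18 at 4.39, 11.3 and 0.412 CPM, all low in control 3. Of the 20 only Gh, growth hormone, was high in control 3, at 38, 34 and 988 counts or 3.79, 3.31 and 102 CPM. The marker lists with most of the 230 genes were those of choroid plexus, and of striatum and central amygdala. They had 15 of 15 and 7 of 16 of their genes at 5 CPM or more among the 230, against 1.92% of all genes.

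The median CV at 5 CPM or more was 11.96% for receptors, 11.8% for channels, 10.2% for peptide genes and 9.97% for transcription factors, against 7.55% over all genes at that level. A 2-fold difference was found in 17 of 209 receptors, 8 of 153 channels, 5 of 62 peptide genes and 16 of 357 transcription factors, against 1.92% of all genes. The levels of the classes differ and the classes were not tested against each other. Spread fell with level up to 1000 CPM: genes at 5 to 10 CPM had a median CV of 13.5% where counting gives 11.7%, and genes at 100 to 1000 CPM 5.74% where counting gives 2.39%. Above 1000 CPM the CV was 7.05% against 0.843% from counting.

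At the other end, the 10 genes with the lowest CV at 50 CPM or more all varied less than counting error alone allows on average. They included the tryptophan tRNA ligase Wars at 85.2, 85.3 and 85.3 CPM, the splicing-linked Thrap3 at 79.8, 79.9 and 79.8 CPM, Glrb, the kinase Mark3 at 106, 106 and 106 CPM, the kinesin adaptor Kifap3 at 406, 405 and 406 CPM and the amyloid precursor-like Aplp1 at 761, 761 and 763 CPM. These values rank the genes in 3 libraries and set no lower limit on their spread.

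**Figure D5:**
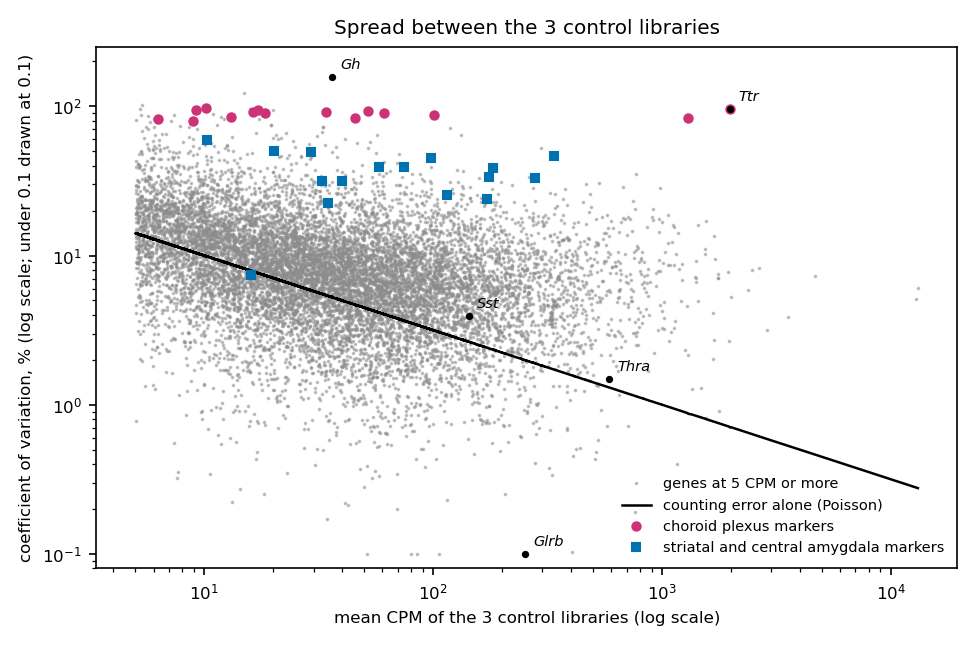
Coefficient of variation over the 3 control libraries (vertical axis, %, log scale, values under 0.1 drawn at 0.1) against mean CPM (horizontal axis, log scale) for genes at 5 CPM or more, with choroid plexus markers as circles, striatal and central amygdala markers as squares and a line for counting error alone. The choroid plexus genes lie between 79.5 and 96.8%, Gh lies above them, and Glrb lies below the line.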

How the data were processed

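The authors deposited raw read counts per gene symbol, 1 file per library, not normalized and not pooled. The build mm39 is listed in the submitters' processing notes, as are STAR 2.7.7a (an aligner), HTSeq 0.13.5 (a read counter), FastQC 0.12.1 and edgeR 3.42.4, with no order or settings. Which gene models were used, and whether strand was used in counting, is not given in the sources used here. Values of overlapping and antisense genes are therefore uncertain. Per the labels' protocols, libraries were made with a stranded total RNA kit after removal of ribosomal RNA, and per the series' design text all libraries were sequenced in 1 pool over several lanes. Rows for reads without a gene (53.0 to 55.1% of the reads in the files), ambiguous reads (0.174 to 0.194%) and reads aligned to more than 1 place (7.61 to 8.16%) were left out of the library sizes, so genes with near-identical copies lose reads. Among genes with at least 300 counts summed over the libraries, 12 sets of 24 symbols had identical counts in every library, and these were read as uncertain.

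CPM were computed from the deposited counts with the TMM factors of edgeR 4.0.16 in R 4.3.3, and the biological coefficient of variation with its common dispersion after filterByExpr (minimum count 10, minimum total 15), which kept 14107 genes. CPM/kb divides CPM by the summed exonic length in GENCODE release M21, an annotation of another build than mm39 that was matched by symbol for 24964 symbols and used for lengths and gene types only. Promoters are from RefSeq on GRCm38.p6. Shares within a family are of its summed CPM/kb. An expressed gene is one at 1 CPM or more in each of the 3 libraries, and spread was described for genes at a mean of 5 CPM or more. The procedure was tested on simulated counts. Since no groups are compared, no test between groups was run, and means, SDs and ranges describe 3 libraries.

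The 69 gene lists and the rule for named genes were chosen with earlier results of these data known. Named were the 20 genes with the highest CPM, the 3 highest members per length of each receptor, channel, peptide and factor list, the 10 highest of each such class, every member of the glutamatergic, basolateral amygdala and GABAergic lists, the 3 highest of each other list, the 20 genes with the highest ratio between libraries and the 10 with the lowest CV, and some genes under this rule are not reported here. Genes named outside this rule were chosen after their values were seen. They include Scn4b, Dbi, Pdyn, Tac1, Vip, Pvalb, Crh, Cartpt, Oxt, Pcsk1, Pcsk2, Thrb, Nr3c2, Pde10a, Adora2a, Kl, Nr4a1, Npas4, Prox1 and the genes of the closing section. Alternatives covered the normalization, the expression floor, the gene length, the most abundant RNAs and leaving out each library.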

Additional observations from a re-analysis of the deposited data

How the results depend on the processing

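Without Malat1, Rn7sk and Rn18s in the totals, the share of counts in the 10 most abundant genes was 2.72% and that in the 100 most abundant 13.1%. The number of genes that differed 2-fold or more between libraries was 908 with a floor of 1 CPM and 68 with a floor of 20 CPM, and 42 to 160 when each control library was left out, at 42 without control 3 and 128 without control 2. Over the same leave-one-out fits the biological coefficient of variation ranged from 7.28 to 13.2%. Genes at 1 CPM or more in every library numbered 13094 to 15060 under the other floors and scalings. Leaving out control 2 moved 21 of 261 named levels by over 1.5 times and leaving out control 3 moved 2. Leaving out a library can raise a mean by at most 1.5 times, so only falls pass this cut. The counts of 21 and 2 therefore do not rank the libraries by influence. Without control 3 the changes ran from -90.2% for Gh to 49.5% for Ttr. The highest member changed in 7 of 43 lists with the length of the longest transcript and in 17 of 43 without length. Scaling by relative log expression or plain totals moved none of the 261 levels by more than 1.48%. The cause of these shifts was not tested. No paired analysis was possible because no groups are compared and no result comes from a test. At the depth of these libraries, 9870139 to 10233706 counts in genes, genes at 5 to 10 CPM had a median CV of 13.5% against 11.7% from counting error.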

Other observations

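Growth hormone was not the only pituitary hormone gene that was uneven. Over a list of 13 pituitary genes drawn up after the Gh values had been seen, Prl, prolactin, had 7, 2 and 123 counts and Cga, the shared subunit of the glycoprotein hormones, 1, 2 and 17 counts, both highest in control 3 as Gh was. The remaining hormone genes did not follow: Pomc, the precursor of corticotropin, had 46, 18 and 30 counts, Lhb 4, 7 and 4 counts and Fshb 0, 2 and 1 counts, and Tshb had none. Pou1f1, the factor that somatotrophs and lactotrophs need, had 1, 0 and 1 counts, the receptor Ghrhr 0, 0 and 3, and Pitx1 none. The source of the Gh and Prl counts was not tested. In controls 1 and 2 Gh lay below the median expressed gene, and its mean over the 3 libraries describes none of them.

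Since Thra was the highest transcription factor, the genes that supply and read thyroid hormone were looked at, on a list made after its level had been seen. Dio2, the astrocyte enzyme that activates the hormone, was even at 83.4, 78.9 and 83.9 CPM, and Dio3, which inactivates it, was low at 2.79, 3.31 and 1.13 CPM. The transporter Slco1c1, which brings the hormone into the brain, had 76.6, 86.2 and 54.5 CPM, lowest in control 3, as Ttr was. Crym, a protein that binds the hormone in the cytosol, had 63.6, 101 and 62.8 CPM and was highest in control 2. Of genes known to respond to the hormone, Klf9 had 217, 200.1 and 227 CPM, Nrgn 241, 252 and 326 CPM and Hr 9.67, 6.32 and 15.97 CPM. Each was highest in control 3, as were 37.9% of all genes at 5 CPM or more. Klf9 differed 1.13-fold between libraries, less than the median of 1.16-fold over those genes. A response to the hormone was not tested.

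A few other genes with a 2-fold difference, chosen after their values were seen, were not described above. Met, the receptor for hepatocyte growth factor, had 3.09, 5.74 and 35.8 CPM and Cpne9, a copine, 6.58, 6.32 and 21.1 CPM, both highest in control 3. The endothelial von Willebrand factor Vwf had 12.7, 9.72 and 36.6 CPM. Slc5a7, the choline transporter of cholinergic neurons, had 23.5, 6.03 and 5.97 CPM and the synaptotagmin Syt2 40.9, 15.1 and 17.3 CPM, highest in control 1. Gpr101, an orphan receptor, had 54.1, 36.4 and 18.1 CPM. Rn18s, the small-subunit ribosomal RNA left after depletion, had 177, 156 and 21.01 CPM and was 8.43-fold lower in control 3 than in control 1.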
